A study of Mus musculus with 2 samples.

Results

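The Zic genes encode transcription factors with C2H2 zinc fingers, named after their abundance in the cerebellum. Here 4 of them, Zic1, Zic2, Zic4 and Zic5, were read in cells sorted from the mouse otocyst, the epithelial vesicle that forms the inner ear. They were read from all 8 probe sets that name 1 of these genes and no other, out of 45101 probe sets on the array and 34958 that name a single gene. The signals of these 8 probe sets ran from 21.0 to 1523.2 in EGFP-negative cells and from 0.9 to 14.2 in EGFP-positive cells. Zic5 had 3 probe sets, Zic1 and Zic4 had 2 each and Zic2 had 1. The family was selected on the same signals described here, so the difference between the populations is a description of the members and no test of them.

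The cells came from embryos at stage E10.5 that were heterozygous for the transgene Tg(ETAR-EGFP)14Imeg, and both populations carry it. After dissociation with trypsin they were sorted into 1 EGFP-positive and 1 EGFP-negative population, and each population was hybridised to 1 Affymetrix array. Per the labels, the reporter marks chiefly ventral and dorsomedial otocyst and is missing from the dorsolateral part. How many embryos went into each population was not given in the sources used here. A single array per population leaves no replicate check, so no p-value is given, every statement describes these 2 libraries, and the number of arrays limits the precision.

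Zic proteins act at the dorsal side of the developing neural tube, in the neural plate border from which neural crest arises, and in the mesoderm of somites and head. Their zinc fingers resemble those of the Gli proteins, the transcriptional effectors of hedgehog signalling. In humans, loss of 1 copy of ZIC2 is a cause of holoprosencephaly, and deletions that take ZIC1 together with ZIC4 have been found in patients with a Dandy-Walker malformation of the cerebellum. The genes lie as divergent pairs, Zic1 with Zic4 on mouse chromosome 9 and Zic5 with Zic2 on chromosome 14, each partner transcribed away from the other. In the RefSeq gene table (assembly GRCm38.p6) Zic1 and Zic4 are next to each other, and a long noncoding RNA gene, 2610035F20Rik, lies between Zic5 and Zic2.

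The values are MAS5 signals, 1 intensity per probe set on a linear scale, and each array had been scaled by the submitters to a common level. Signals below each array's 40th percentile, 10.4 for EGFP-positive and 12.4 for EGFP-negative, were treated as a floor. For comparison, 27 control probe sets for bacterial RNA that showed no clear signal went up to 12.3 and 9.0. The highest control of the EGFP-positive array thus lay above that array's floor. Where the EGFP-positive signal was raised to its floor, "at least" marks the fold as a minimum for that floor, and a higher floor gives a lower bound. Where a gene has several probe sets above the floor on both arrays, their log2 ratios differed with an SD of 0.315 (5640 genes). This SD is the only measure of error here and does not cover variation between embryos, sorts or arrays. Of the 8 Zic probe sets, 1 was above the floor on both arrays, so the SD does not describe ratios limited by the floor. Signals of different probe sets depend on their own probes and are not compared as amounts of RNA.

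All 8 probe sets were above the floor in EGFP-negative cells, and 7 of the 8 were below it in EGFP-positive cells. Of all genes above the floor in the EGFP-negative library, 7.54% did not exceed the EGFP-positive floor. Each gene, read from whichever of its probe sets was brightest on average, was higher by 2-fold or more in EGFP-negative cells, 4 of 4 genes. Of the 13363 genes that exceeded the floor on either array, 7.63% were higher by 2-fold or more in EGFP-negative cells and 2.90% higher by 2-fold or more in EGFP-positive cells. The members were chosen for this contrast, and their counts are not read against these shares. The median log2 ratio of EGFP-positive over EGFP-negative signal was -3.49 for the 4 genes and 0.003 for all genes. Signals below the floor were raised to it in this and every later median. The Zic median rests on the values of Zic2 and Zic5, both set by the EGFP-positive floor. Like the counts, it describes members chosen for this contrast and is not read against the value for all genes. Of the calls over all genes, 72.4% were higher in EGFP-negative cells, a share of 62.1% after quantile normalization and 86.8% when the arrays were scaled on hybridisation spike controls.

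**Figure D1:**
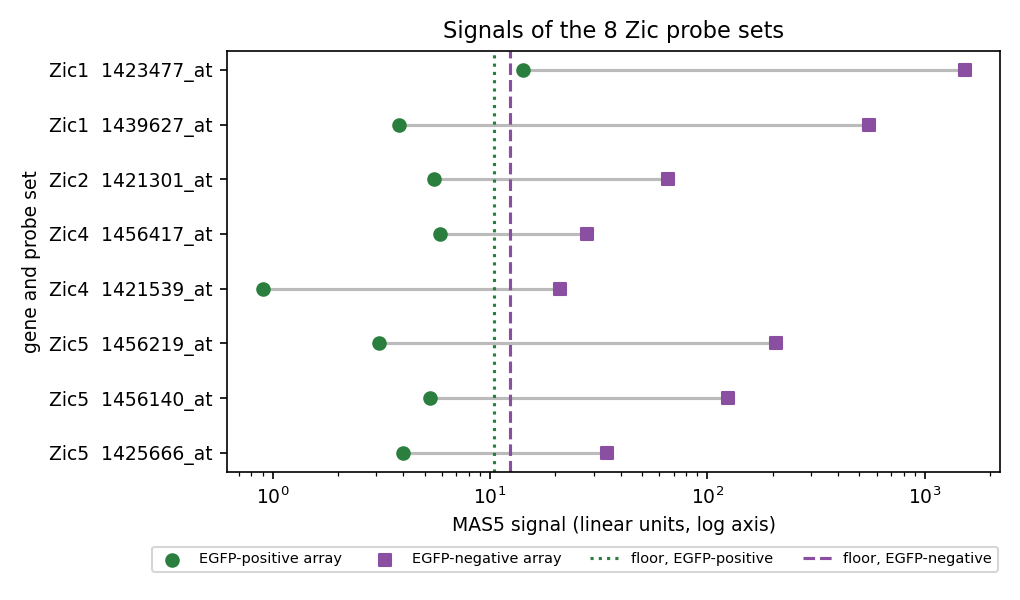
MAS5 signal on a log axis for each of the 8 Zic probe sets (rows), with a circle for the EGFP-positive and a square for the EGFP-negative array and vertical lines at the floors of 10.4 and 12.4. Every square lies right of both floors, and 1 circle, a Zic1 probe set at 14.2, does.

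Zic1 takes part in cerebellar, dorsal spinal cord and somite development and is needed with Zic4 for the growth of the cerebellum. Probe set 1423477_at had a signal of 14.2 in EGFP-positive cells and 1523.2 in EGFP-negative cells. Probe set 1439627_at had 3.8 in EGFP-positive cells and 553.7 in EGFP-negative cells. Both probe sets were therefore bright in the EGFP-negative library and at or near the limit of measurement in the other.

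The first Zic1 probe set was 107-fold higher in EGFP-negative cells, a log2 ratio of -6.75. With the floor at the 60th percentile, which the EGFP-positive signal did not reach, the log2 ratio was -5.51, and with no floor and a pseudocount of 16 it was -5.67, so the size of the fold depends on the floor. The second was at least 53.2-fold higher. The EGFP-positive signal of 14.2 is the only member signal above the highest bacterial control of its array, 12.3, and the second Zic1 probe set gave no signal above the floor there.

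Zic4, the divergent partner of Zic1, had EGFP-negative signals close to the floor of 12.4. Probe set 1456417_at had 5.9 in EGFP-positive cells and 28.0 in EGFP-negative cells. Probe set 1421539_at had 0.9 in EGFP-positive cells and 21.0 in EGFP-negative cells. Both probe sets were above the floor in the EGFP-negative library alone.

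The first Zic4 probe set was higher in EGFP-negative cells by at least 2.69-fold, and the second at least 2.02-fold higher. When the EGFP-positive floor was raised to the highest bacterial control, these bounds were 2.28-fold and 1.71-fold, so the second no longer reached 2-fold. With the floor at the 60th percentile, 33.3 and 37.5, Zic4 was at the floor in both libraries and no ratio could be given. The bounds for Zic4 are thus set by the floor, and how far its difference resembles that of Zic1 cannot be read from these signals.

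Zic2 acts in forebrain midline formation, neural tube closure and the routing of retinal axons. Its single probe set, 1421301_at, had 5.5 in EGFP-positive cells and 66.0 in EGFP-negative cells, at least 6.35-fold higher in the latter. There is no second probe set with which to compare it. With the floor at the 60th percentile its log2 ratio was -0.99, just short of 2-fold. With the EGFP-positive floor raised to the highest bacterial control the bound was 5.37-fold.

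Zic5, the divergent partner of Zic2, takes part in neural tube closure and neural crest development. Probe set 1456219_at had 3.1 in EGFP-positive cells and 206.5 in EGFP-negative cells. Probe set 1456140_at had 5.3 in EGFP-positive cells and 123.9 in EGFP-negative cells. Probe set 1425666_at had 4.0 in EGFP-positive cells and 34.4 in EGFP-negative cells. All 3 probe sets lay below the floor in the EGFP-positive library, and they differed in how bright they were in the EGFP-negative library.

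The bounds for Zic5 were differences of at least 19.9-fold, 11.9-fold and 3.31-fold towards EGFP-negative cells. With the EGFP-positive floor raised to the highest bacterial control they were 16.8-fold, 10.1-fold and 2.80-fold. Because the EGFP-positive side is at the floor for each, the spread among these bounds follows the EGFP-negative signals and does not show unequal change. For the same reason the order of Zic2, Zic4 and Zic5 by ratio is not given. Only Zic1 had a difference measured on both sides.

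**Figure D2:**
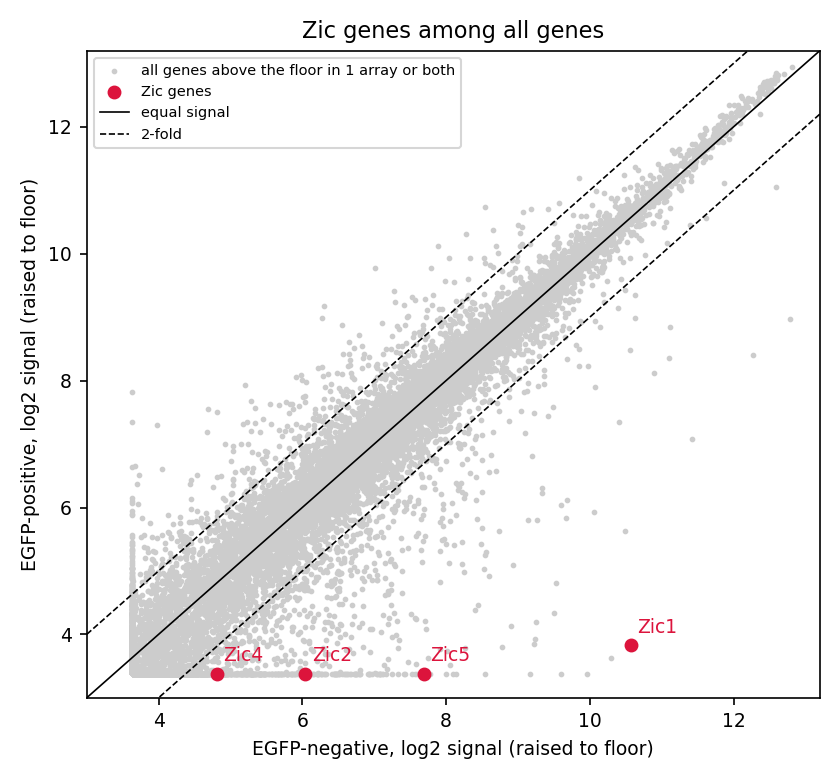
Log2 signal in EGFP-negative (x axis) and EGFP-positive cells (y axis), each raised to its floor, for the 13363 genes that exceeded the floor on either array (grey) and the Zic genes (red), with lines for equal signal and for 2-fold. Zic2, Zic4 and Zic5 sit on the EGFP-positive floor, and Zic1 lies just above it.

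The genes with signals nearest to those of each member were taken as the 5 at the smallest distance in the log2 signals of both arrays, raised to the floor. This is a likeness over 2 values only, between signals of different probe sets, and says nothing of like amounts of RNA. For Zic1 they were the erythrocyte anion exchanger gene Slc4a1 at a distance of 0.34, the apelin receptor gene Aplnr at 0.76, the erythroid gene Hemgn at 1.07, the sphingosine phosphate receptor gene S1pr3 at 1.18 and Fabp7, a fatty acid binding protein gene of neural progenitors and glia, at 1.34. No gene was within 0.1 of Zic1. For Zic5 they were the erythroid Rh-associated glycoprotein gene Rhag at 0.024, the macrophage mannose receptor gene Mrc1 at 0.064, the mesenchymal regulator gene Twist2 at 0.090, the haematopoietic regulator gene Tal1 at 0.093 and the coagulation factor gene F13a1 at 0.13.

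For Zic2 the nearest genes were Calcrl, Fcgr3, Lix1l, Sst and C130071C03Rik, at distances from 0.007 to 0.028, and 16 genes were within 0.1. For Zic4 they were Psg28, Glra1, Hfe, Aif1 and Ccr1, all within 0.010, and 51 genes were within 0.1. The genes named for Zic2, Zic4 and Zic5, like these members themselves, had no EGFP-positive signal above the floor, so the likeness rests on the EGFP-negative signal alone and singles out no gene.

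The windows around the annotated starts of 3 members are shown so that the partners of a pair, which were low in the same library, can be compared letter by letter. Each runs from 250 bases before to 50 bases after a RefSeq start, 5′ to 3′ on the gene's own strand, in build GRCm38.p6. Zic1 is at chr9:91365719-91366018 on the minus strand, Zic4 at chr9:91368722-91369021 on the plus strand and Zic5 at chr14:122465609-122465908 on the minus strand. Capitals mark matches to the motifs that were searched.
Zic1: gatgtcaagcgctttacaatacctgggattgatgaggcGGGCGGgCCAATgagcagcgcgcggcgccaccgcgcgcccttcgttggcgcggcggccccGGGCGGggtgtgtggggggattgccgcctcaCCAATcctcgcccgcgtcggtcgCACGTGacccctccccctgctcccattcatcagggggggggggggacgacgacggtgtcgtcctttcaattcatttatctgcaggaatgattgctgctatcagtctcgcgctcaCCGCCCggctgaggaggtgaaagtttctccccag
Zic4: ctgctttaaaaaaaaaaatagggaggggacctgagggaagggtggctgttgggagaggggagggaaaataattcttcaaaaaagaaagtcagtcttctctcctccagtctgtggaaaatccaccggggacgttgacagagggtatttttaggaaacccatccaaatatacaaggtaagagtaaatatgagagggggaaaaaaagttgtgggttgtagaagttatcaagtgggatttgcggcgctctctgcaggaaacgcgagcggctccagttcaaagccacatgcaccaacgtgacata
Zic5: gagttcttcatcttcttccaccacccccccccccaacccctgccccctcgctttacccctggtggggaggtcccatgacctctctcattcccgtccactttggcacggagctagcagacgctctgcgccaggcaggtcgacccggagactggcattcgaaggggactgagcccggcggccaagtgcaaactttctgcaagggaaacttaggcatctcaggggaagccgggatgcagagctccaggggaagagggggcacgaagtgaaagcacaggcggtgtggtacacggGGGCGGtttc

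The motifs were searched on both strands by their exact letters. They were the GC box GGGCGG, the CCAAT box CCAAT, the E-box CACGTG, the TATA box TATAAA, the Gli site TGGGTGGTC and the letters CAGCAGG, part of the sequence that Zic proteins are known to bind. The Zic1 window held 3 GC boxes, 2 CCAAT boxes and 1 CACGTG. Its GC boxes began 212 and 152 bases before the start and at base 17 after it, its CCAAT boxes began 205 and 121 bases before it, and CACGTG began 98 bases before it. The Zic5 window held 1 GC box, at base 41 after the start, and the Zic4 window held none of the 6 motifs. Of 32851 mouse promoter windows of the same length, 35.7% held a GC box, 37.4% a CCAAT box, 7.15% CACGTG, 13.6% TATAAA and 0.253% the Gli site. CAGCAGG was in 3454 of these windows. No matches overlapped another motif. The last 3 motifs were not among the letters of any of the 3 windows.

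The windows of the partners Zic1 and Zic4 differed in composition. Zic1 had 65.3% G and C and 31 CpG dinucleotides, more CpG than 89.4% of mouse windows. Zic4 had 46.0% G and C and 8 CpG, next to the median of 7 over all windows. Zic5 lay between them in CpG, with 62.7% G and C and 15 CpG. A motif match is a description of letters and not evidence that a factor binds there.

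The genes next to the members on their chromosomes were read in the same way, as the nearest gene on each side with a probe set of its own. Beyond Zic5 lies Gm5089, a long noncoding RNA gene, with 0.8 in EGFP-positive cells and 30.7 in EGFP-negative cells, at least 2.95-fold higher in the latter. Between Zic5 and Zic2, 2610035F20Rik was at the floor in both, with 2.9 and 6.7. Beyond Zic2, Pcca, which encodes a subunit of the mitochondrial propionyl-CoA carboxylase, had 195.3 in EGFP-positive cells and 199.7 in EGFP-negative cells, and its second probe set had 14.8 and 17.3. Both Pcca probe sets were within 2-fold.

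On chromosome 9, 15 annotated genes with no such probe set separate Zic1 from Tbc1d2b, a gene for a GTPase-activating protein of the TBC family, which had 67.8 in EGFP-positive cells and 119.9 in EGFP-negative cells, a log2 ratio of -0.82. On the other side, 8 such genes separate Zic4 from the phospholipid scramblase gene Plscr1, whose 3 probe sets had log2 ratios from 0.20 to 0.91. Of these 5 neighbours, 2610035F20Rik was at the floor in both libraries and 1 was past 2-fold. The latter was lower in EGFP-positive cells, as the Zic genes were. The share over all genes above the floor was 7.63% in that direction, so a count of 1 is not read as a result. With the floor at the 60th percentile this neighbour, Gm5089, was at the floor in both libraries.

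**Figure D3:**
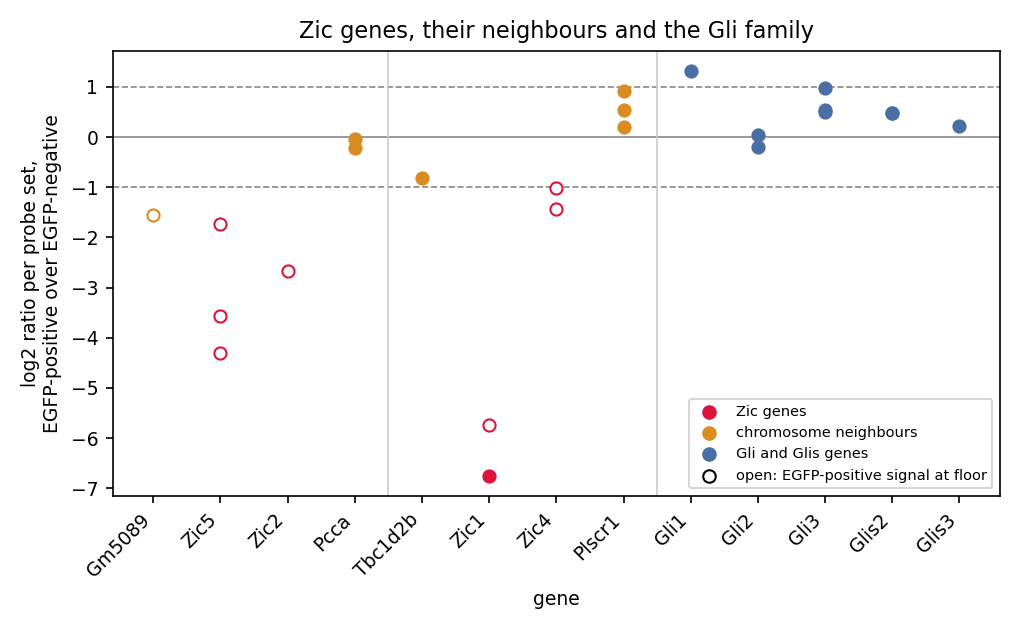
Log2 ratio of EGFP-positive over EGFP-negative signal per probe set, for the Zic genes and their measured neighbours on chromosome 14 (left) and chromosome 9 (middle) and for the Gli and Glis genes (right). Open points have the EGFP-positive signal at the floor, and dashed lines mark 2-fold. All 8 Zic points and that of Gm5089 lie below the lower dashed line, and no Gli or Glis point does. Of all genes above the floor on either array, 7.63% were that far towards EGFP-negative cells.

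The Gli and Glis genes encode zinc finger proteins related to the Zic proteins, and none of the 5 that were above the floor was past 2-fold towards EGFP-negative cells. Of all genes that exceeded the floor on either array 7.63% were, so this count does not set the Gli and Glis genes apart. Gli1, itself a transcriptional target of hedgehog signalling, had 81.5 in EGFP-positive cells and 32.7 in EGFP-negative cells, 2.49-fold higher in the former. Gli2, the main activator, had 320.7 and 369.9, and its second probe set had 111.2 and 108.4. Gli3, which acts mainly as a repressor, had 590.9 and 408.0, and its 3 probe sets had log2 ratios from 0.50 to 0.98. Glis2 and Glis3 had log2 ratios of 0.49 and 0.21, the latter -0.04 with spike control scaling, and Glis1 was at the floor in both libraries. Gli1, Gli2 and Gli3 were thus above the floor in both libraries, where the Zic genes other than Zic1 were not.

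In the wider list of Gli family and hedgehog genes, 3 of 16 measured genes were higher by 2-fold or more in EGFP-negative cells and 1, Gli1, in EGFP-positive cells. Over all genes above the floor these shares were 7.63% and 2.90%, which stand beside every later list too. The median log2 ratio of the hedgehog list was 0.20, or -0.05 with spike control scaling. The 3 were Shh, the secreted ligand (19.2 in EGFP-positive against 55.5 in EGFP-negative cells), Disp1, which releases the ligand (38.3 against 106.0), and the coreceptor gene Boc (34.3 against 84.7). The lowest Boc probe set by size of difference was at -0.16. Genes linked to holoprosencephaly, as Zic2 is, had a median of -0.29, and the same 3 of 14 measured genes were higher by 2-fold or more in EGFP-negative cells and none in EGFP-positive cells. Tgif1, a homeobox repressor gene of that list, had 467.9 in EGFP-positive cells and 261.3 in EGFP-negative cells.

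Regulators of the neural plate border had a median of -1.24, with 9 of 15 measured genes higher by 2-fold or more in EGFP-negative cells and 2 in EGFP-positive cells. Pax3, a paired box gene that acts with Zic1 in neural crest induction, had 1.8 in EGFP-positive cells and 89.7 in EGFP-negative cells, and all 3 of its probe sets were past 2-fold. The neural crest specifier gene Foxd3 had 5.0 and 48.6, and Myc had 35.0 and 142.3. The 2 higher in EGFP-positive cells were Gbx2 (580.3 against 79.1), a homeobox gene also expressed in dorsomedial otocyst, and Sox10 (889.3 against 403.7), also an otic gene and named after its values were seen. The median of this list was -0.71 with the mean over probe sets and -0.47 with the least different probe set of each gene.

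Genes of dorsal neural tube and roof plate, where Zic genes are expressed, had a median of -1.47. Of 10 measured genes, 7 were higher by 2-fold or more in EGFP-negative cells and none in EGFP-positive cells. Of the 10, 8 had no EGFP-positive signal above the floor. Within 2-fold were Lmx1b at -0.36 and Bmp6 at 0.21, and 1 of the 2 Pax7 probe sets was at 0.15. Wnt1 (3.1 against 16.8) was not counted past 2-fold, but its -0.69 was set by the EGFP-positive floor and is a minimum difference. Lmx1a was placed in the otic list and not in this one, and was higher in EGFP-positive cells (373.6 against 113.7). Wnt1, Lmx1b, Bmp6 and Pax7 were named after their values were seen. Olig3, a basic helix-loop-helix gene of dorsal progenitors, had 0.5 in EGFP-positive cells and 120.8 in EGFP-negative cells. The homeobox gene Msx3 had 2.6 and 87.2, and the proneural gene Atoh1 had 4.6 and 73.5. Pax3, named above, was the other of the 4 with the largest ratios.

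Markers of other cell types that could be present beside otocyst epithelium moved with the Zic genes. Among cranial and periotic mesenchyme genes, 18 of 21 measured genes were higher by 2-fold or more in EGFP-negative cells, with a median of -3.34. Their list had a summed signal of 585.3 in EGFP-positive cells and 7482 in EGFP-negative cells. Summed signals, here and below, cover every listed gene with a probe set, without the floor. They follow the brightest probe sets and are not amounts of RNA. The leading mesenchyme genes were Prrx1 (17.5 against 479.9), Twist1 (11.5 against 266.5), Col3a1 (135.5 against 2733) and Twist2 (7.5 against 194.0). Among hindbrain genes, 11 of 15 were higher by 2-fold or more in EGFP-negative cells and 2 in EGFP-positive cells, with a median of -2.0. Those 11 included Fabp7 (15.2 against 602.0), Hoxa2 (7.3 against 131.0), Hes5 (3.7 against 90.9) and Hoxb2 (22.0 against 150.1).

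The summed hindbrain signal was 2329 in EGFP-positive cells and 2097 in EGFP-negative cells, opposite in direction to the median. The 2 hindbrain genes that were higher in EGFP-positive cells, Irx3 (1700.5 against 372.4) and Irx5 (448.2 against 162.4), named after their values were seen, made up most of the EGFP-positive sum. For neural crest and glia, 6 of 9 genes were higher by 2-fold or more in EGFP-negative cells and 2 in EGFP-positive cells, with a median of -2.76 and summed signals of 2726 and 4414. Besides Fabp7, the leading genes were Ednrb (32.7 against 368.3), Tfap2b (0.7 against 109.0) and Ets1 (39.3 against 378.2). The 2 in the other direction were Erbb3 (1405 against 511.1), named after its values were seen, and Sox10.

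The erythroid, endothelial and leukocyte lists moved the same way, with 8 of 8 genes in each higher by 2-fold or more in EGFP-negative cells. Their medians were -4.51, -2.24 and -2.78, and their summed signals were 2515 against 14293, 70.1 against 592.0 and 74.3 against 1167. Among their leading genes, Alas2 and Klf1 had 5.9 against 576.5 and 5.6 against 371.3, Cldn5 had 2.2 against 135.7 and Csf1r had 18.3 against 607.1, though its 3 probe sets reached up to -0.59 on the log2 ratio scale. Laptm5 (15.0 against 162.9) had probe sets that reached up to -0.11. With the least different probe set of each gene the median was -3.49 for erythroid cells, -2.24 for endothelium and -1.69 for leukocytes. No gene of these marker lists had a signal of 0 in either library. Under the floor at the 60th percentile, with the brightest probe sets, the medians came closer to 0. They were -2.54 for mesenchyme, -0.80 for hindbrain, -1.71 for neural crest, -3.68 for erythroid cells, -1.19 for endothelium and -1.11 for leukocytes. The part of such cells in the Zic signals was not tested, and in sorted bulk RNA fewer cells of a type and less RNA per cell cannot be told apart.

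Otic epithelium genes went the other way, with 12 of 17 measured genes higher by 2-fold or more in EGFP-positive cells, none in EGFP-negative cells and a median of 1.36. They were above the floor in both libraries, with summed signals of 13860 in EGFP-positive cells and 6834 in EGFP-negative cells. Whether the genes of this list are particular to otic epithelium was not tested, so their signals do not by themselves show that it was present in each. The leading genes were Fbxo2 (197.8 against 57.9), Cldn6 (1333.5 against 401.2), Lmx1a (373.6 against 113.7) and Gata3 (201.7 against 65.4). Oc90, the otoconin gene of the list, named after its values were seen, had 939.8 against 1405.7, a log2 ratio of -0.58. The EGFP-negative library therefore held RNA of genes of the otic list together with RNA of genes that mark mesenchyme, neural tissue, blood and endothelium. The EGFP-positive library was not free of such RNA. At its floor were 7 of 21 mesenchyme and 4 of 8 erythroid genes. The erythroid genes Hbb-y (2121.4 against 6191.1) and Hba-x (338.5 against 4955.8), named after their values were seen, were well above it. These signals do not say which cells the Zic transcripts came from.

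**Figure D4:**
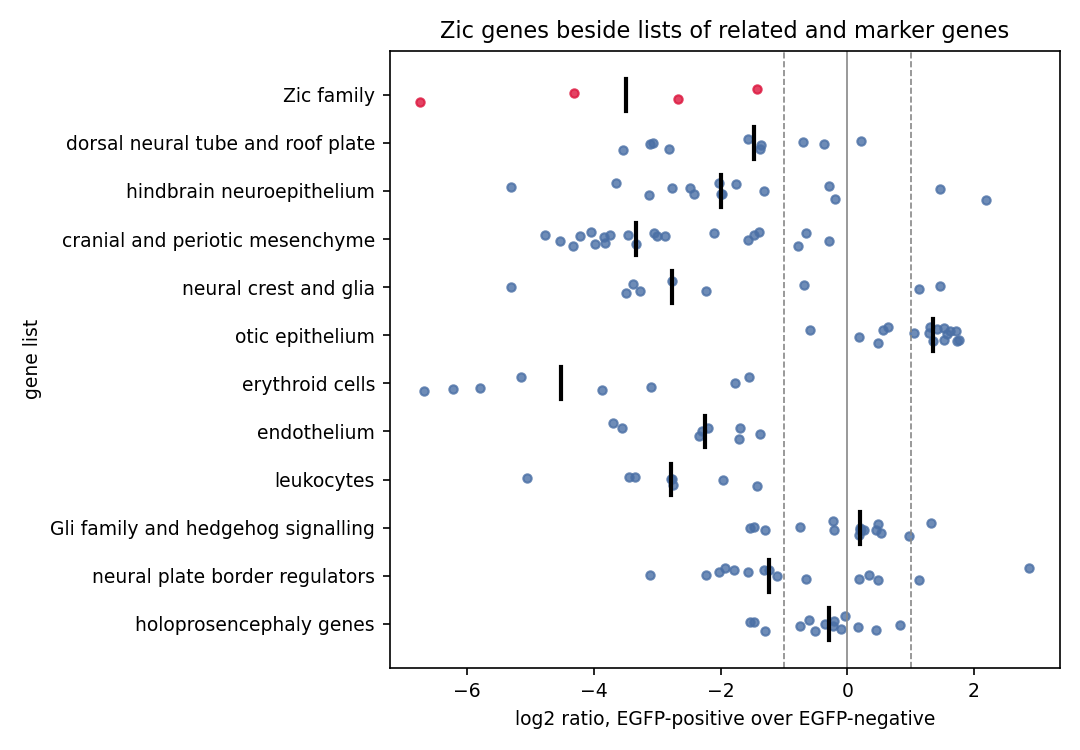
Log2 ratio of EGFP-positive over EGFP-negative signal for each Zic gene (top) and each measured gene of 11 lists (rows), with a black bar at the median and dashed lines at 2-fold. The Zic median of -3.49 lies on the same side as the mesenchyme median of -3.34 and the hindbrain median of -2.0, and the otic epithelium median of 1.36 lies on the other. The members were chosen for this contrast, so the place of the Zic median is a description only.

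The ratios of the Zic genes kept their direction under each of the 8 alternative settings that gave a value. That direction was part of the choice of the members, so this is no separate support for it. The scaling of the arrays on hybridisation spike controls shifted the median of all genes by -0.25, and relative to it the log2 ratio of Zic1 was -6.75 and that of Zic5 -4.31.

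**Figure D5:**
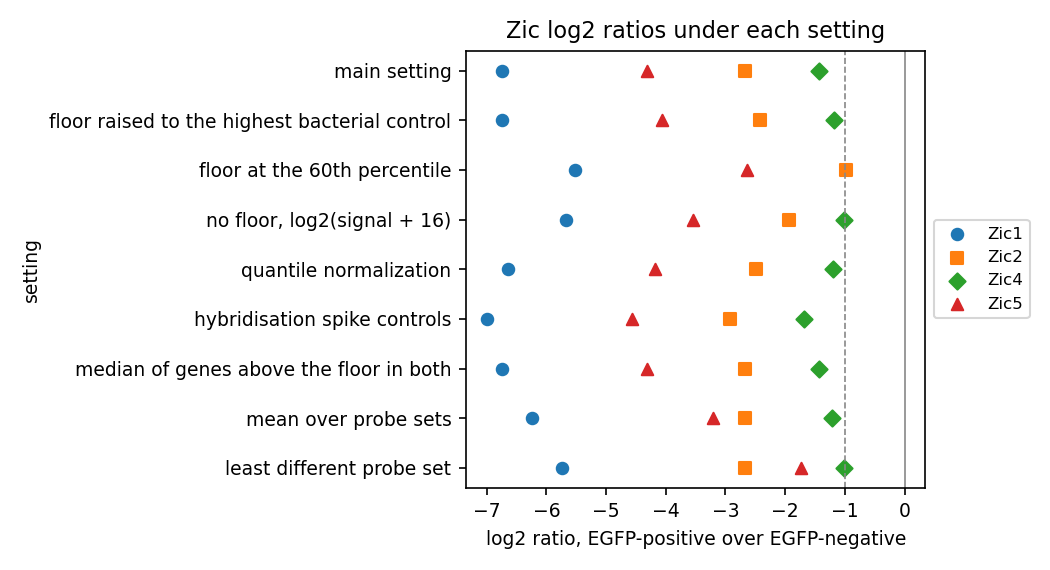
Log2 ratio of EGFP-positive over EGFP-negative signal for each Zic gene under the main setting and 8 alternatives (rows), with a dashed line at 2-fold. Zic1 stays between -7.00 and -5.51, and Zic4 has no value with the floor at the 60th percentile.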

How the data were processed

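The submitters deposited an intensity, the MAS5 signal, for every probe set of each array; their processing notes give MAS5 version 5.0. The target of the scaling was not given in the sources used here. After trimming the lowest and highest 2% of signals the mean was 99.8 for EGFP-positive and 100.0 for EGFP-negative cells. Probe sets were named from the platform annotation, with symbols updated through the RefSeq table (GRCm38.p6), and those naming several genes (932) were not used. Signals were raised to each array's 40th percentile and the log2 ratio was taken. Each gene was read from whichever of its probe sets was brightest on average, and counted when it differed at least 2-fold. Promoter windows came from RefSeq; none was given for Zic2.

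The rule for named genes took the 4 members with every probe set, the 5 genes of nearest signals per member, the nearest measured neighbours, Gli1 to Gli3 and up to 4 genes per list with the largest ratio. The members and lists were chosen with earlier results of these data known. Alternatives were another floor, no floor with a pseudocount of 16, 3 scalings and 2 other choices of probe set, and 1 more floor chosen after seeing the data. The procedure was run on simulated data with differences placed only in genes well above the floor. That run does not cover ratios limited by the floor, as most Zic ratios are. Python 3.11.15, numpy 2.4.6, pandas 2.3.3 and matplotlib 3.10.9 were used.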

Additional observations from a re-analysis of the deposited data

How the results depend on the processing

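Of 31 values of the Zic log2 ratios under 8 alternative settings, all 31 were below 0 and 30 were past 2-fold. This tally is no independent support, since the members were chosen on these signals. Of their 8 probe sets, 7 were also below the EGFP-positive floor. The 31 values are not all separate readings, as Zic2 has 1 probe set and both other choices of probe set repeat its main value. The exception to 2-fold was Zic2 at -0.99 with the floor at the 60th percentile. That floor gave -5.51 for Zic1 and -2.63 for Zic5 and left Zic4 at the floor in both libraries, without a value. With no floor and a pseudocount of 16 the ratios were -5.67 for Zic1, -1.93 for Zic2, -1.01 for Zic4 and -3.54 for Zic5. The mean over probe sets gave -6.24 for Zic1 and -3.20 for Zic5, and the least different probe set gave -5.73 for Zic1, -1.01 for Zic4 and -1.73 for Zic5. The other settings moved these values by less than 0.315, the SD between probe sets of a gene that were above the floor on both arrays. Most Zic probe sets were not, so this SD is no measure of the error of their ratios.

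The genes higher by 2-fold or more in EGFP-negative cells numbered 1019, against 478 with the floor at the 60th percentile and 647 with no floor. Those higher by 2-fold or more in EGFP-positive cells numbered 388, against 237, 238 and, with spike control scaling, 222. That scaling used the 12 of 18 spike probe sets that exceeded both floors. Of 88 list medians under the alternatives, 67 stayed within 0.315 of the main value, 21 moved by more and none of those past 2-fold changed sign. Low EGFP-positive signals limit every Zic ratio to a lower bound except that of 1 Zic1 probe set. No paired analysis was possible because each population has 1 array.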
